A study of Mus musculus with 6 samples.

Results

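The genes described here are 32 genes of the integrated stress response and the unfolded protein response, measured in mouse brain. They were picked by gene symbol from a deposited table of read counts with 31276 gene symbols, and every symbol was found. The samples were brains of C57BL/6 mice aged 14 days, an age at which myelin is being laid down, and RNA was sequenced from 3 samples labelled as a PRMT5 knockout made with Olig2-Cre (KO) and from 3 wild-type samples (WT). PRMT5 adds methyl groups to arginines of histones and of proteins that take part in splicing. Cre recombinase under the control of Olig2 acts in cells of the oligodendrocyte lineage and their relatives, so the brain also holds many cells in which Prmt5 was not targeted. The labels do not say whether WT animals carried a floxed allele or Cre, nor whether each sample is 1 animal. Every p-value here therefore rests on a spread among 3 samples a group that may be partly technical. That spread was also moderated with the spread of other genes.

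Cells under stress slow protein synthesis and change transcription through a shared signal. Kinases such as PERK, which senses unfolded protein in the endoplasmic reticulum (ER), phosphorylate the translation factor eIF2, and the transcription factor ATF4 is then translated more and switches on genes of amino acid supply. The other ER sensors, IRE1 and ATF6, act through the transcription factors XBP1 and cleaved ATF6 and raise chaperones and degradation factors. Oligodendrocytes make large amounts of membrane protein and lipid while they myelinate, and in humans inherited defects of eIF2B, the partner of eIF2, cause a disease of white matter.

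The integrated stress and unfolded protein response genes showed no called difference between KO and WT brain in the fit without a replicate block. Of the 32 genes, 30 passed a filter on low counts, and 0 of these 30 were called in edgeR's quasi-likelihood test at a Benjamini-Hochberg adjusted p under 0.05 over all genes. Among all 16592 genes tested, 1.20% were called. DESeq2 also called 0 of the genes. At an unadjusted p under 0.05 in edgeR there were 2 of the 30, Nupr1 and Mthfd2, both higher in KO, against 9.67% of all genes in either direction and 4.40% in the higher direction. With the replicate number as a block, 1 of the 30 was called, Nupr1, against 3.41% of all genes.

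The fitted differences were small in most of the 30 genes. The log2 fold change of KO over WT was positive in 17 and negative in 13, with a median of 0.04, against a median of 0.01 over all genes tested. It ran from -0.25 (Atf6) to 0.84 (Nupr1). In 28 of the 30 genes the fitted value was within 1.25-fold in either direction, which is 93.3% of them, against 80.7% of all genes tested. The 95% interval of the difference, from the edgeR fit, stayed within a 1.5-fold change in 25 genes and within a 2-fold change in 28. The genes whose interval reached past 1.5-fold were Ern1, Cebpb, Nupr1, Chac1 and Mthfd2, none of which had a group mean above 8.21 CPM (reads scaled to the size of the library).

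**Figure D1:**
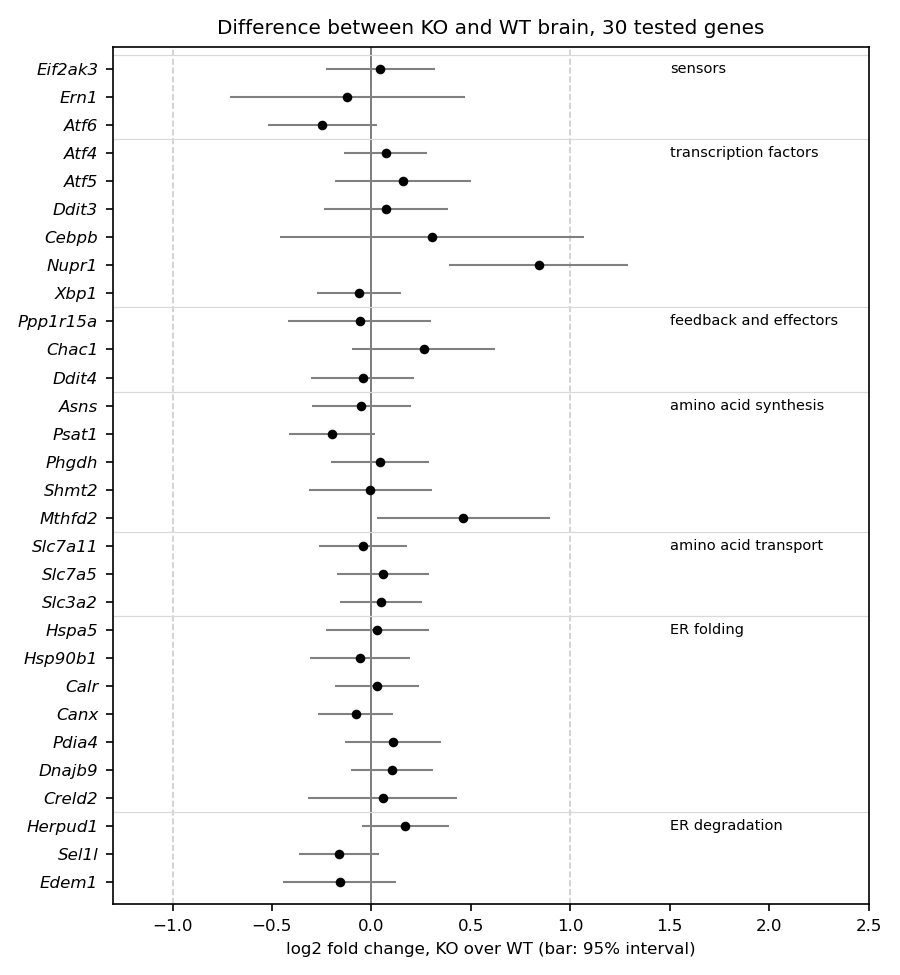
Log2 fold change of KO over WT (horizontal axis) for the 30 genes that passed the filter on low counts, in rows grouped by role. Points are edgeR estimates from 3 KO and 3 WT libraries, bars are 95% intervals, and dashed lines mark a 2-fold change. Intervals lie to the right of 0 for Nupr1 (0.84) and Mthfd2 (0.46), and the other 28 include 0.

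The targeted gene and the libraries set the frame for these values. Prmt5 stood at 68.2, 68.4 and 81.6 CPM in KO replicates 1 to 3, against 90.8, 90.4 and 91.8 CPM in WT replicates 1 to 3. The KO libraries all lay below the WT libraries, and the edgeR adjusted p was 0.232, or 0.0379 when the replicate block was added. Library totals ran from 15089140 to 16872925 counts. Summed markers of myelinating oligodendrocytes, 8 genes of which all 8 fell, ran from 896.9 to 1920 CPM in KO and from 7521 to 10259 CPM in WT. A list of precursor and lineage markers (Pdgfra, Cspg4, Olig1, Olig2 and Sox10) summed to between 226.1 and 234.8 CPM in KO. In WT it summed to between 432.7 and 452.4 CPM. All 5 were lower in KO, and 4 of them were called in the edgeR fit without the block. In RNA from bulk brain tissue, fewer cells of a type and less RNA per cell cannot be told apart. Summed markers of meningeal fibroblasts ran from 197.3 to 290.2 CPM in KO and from 110.3 to 118.3 CPM in WT. All 5 of these genes were higher in KO, and 4 of them were called in the edgeR fit without the block. Transcripts of cerebellar granule cells were present in KO replicates 1 and 3 and WT replicate 1, and Xist, transcribed in females, in KO replicates 1 and 2 and WT replicate 2. Neuron markers, a check of the labelled tissue, summed to between 4881 and 5137 CPM in KO and between 4761 and 5229 CPM in WT.

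The promoters of several of these genes carry short sequences through which the responses are known to act. Matches were found in only part of the list. The ER stress response element (ERSE) was searched as CCAAT and CCACG with any 9 bases between them, and a variant form, ERSE-II, as ATTGG and CCACG with any 1 base between them. The core of the C/EBP-ATF response element (CARE), which ATF4 and its partners bind, was searched as TGATGNAA. Both strands were read in RefSeq windows (GRCm38.p6) from 250 bases before to 50 bases after a gene's start, which were at hand for 30 of the 32 genes and not for Atf6 and Slc7a5. ERSE was present in 0.119% of all 32851 windows and in 5 of the 30 genes, Hspa5, Hsp90b1, Calr, Canx and Creld2. ERSE-II was present in 0.0365% of windows and in Herpud1. The CARE core was present in 3.97% of windows and in 7 of the 30 genes, Atf3, Nupr1, Trib3, Chac1, Asns, Slc7a11 and Herpud1. A match is a run of letters and not a shown binding site, and a gene without a match may hold the element in another form or place.

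The 250 bases before the start of 4 of these genes follow, 5′ to 3′ on the strand of the gene, with the matched element in capitals. Hspa5 and Herpud1 show the ERSE and ERSE-II forms, and Chac1 and Nupr1 the CARE core, which in them, as in Herpud1, reads on the opposite strand. The windows lie at chr2:34771840-34772089 (plus strand), chr8:94386179-94386428 (plus strand), chr2:119350992-119351241 (plus strand) and chr7:126625471-126625720 (minus strand).
Hspa5: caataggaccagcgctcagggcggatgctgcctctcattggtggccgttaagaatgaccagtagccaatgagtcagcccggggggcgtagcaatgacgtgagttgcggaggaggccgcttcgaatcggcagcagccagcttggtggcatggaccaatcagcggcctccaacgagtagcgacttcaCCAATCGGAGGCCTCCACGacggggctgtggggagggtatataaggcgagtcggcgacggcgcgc
Herpud1: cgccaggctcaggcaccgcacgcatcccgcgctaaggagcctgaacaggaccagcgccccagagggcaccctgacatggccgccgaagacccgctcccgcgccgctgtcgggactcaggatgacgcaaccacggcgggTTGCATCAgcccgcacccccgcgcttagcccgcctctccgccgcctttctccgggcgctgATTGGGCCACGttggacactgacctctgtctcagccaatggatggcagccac
Chac1: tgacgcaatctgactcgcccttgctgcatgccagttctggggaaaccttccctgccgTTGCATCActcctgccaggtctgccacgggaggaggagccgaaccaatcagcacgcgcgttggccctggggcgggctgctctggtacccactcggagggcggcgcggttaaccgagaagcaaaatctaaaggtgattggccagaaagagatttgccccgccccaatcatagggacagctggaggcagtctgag
Nupr1: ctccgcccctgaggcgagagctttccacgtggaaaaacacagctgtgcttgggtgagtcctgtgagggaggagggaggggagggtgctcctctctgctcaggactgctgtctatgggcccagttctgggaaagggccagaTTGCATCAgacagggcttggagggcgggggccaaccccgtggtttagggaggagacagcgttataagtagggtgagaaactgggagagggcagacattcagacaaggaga

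In edgeR's test without the replicate block, the genes with these elements were not called, against 1.20% of all genes called. The 5 genes with an ERSE ran from -0.08 (Canx) to 0.06 (Creld2) in log2 fold change. Of the 7 genes with a CARE core, 5 passed the filter on low counts. These 5 ran from -0.05 (Asns) to 0.84 (Nupr1). With the replicate block 1 of them, Nupr1, was called (edgeR adjusted p = 0.0285), against 3.41% of all genes. A single gene is no result about genes with the element. In the matched letters the ERSE of Calr reads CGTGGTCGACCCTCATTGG on the strand of the gene, and that of Canx reads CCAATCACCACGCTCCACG, so the element stands in opposite directions in these neighbours in the folding cycle.

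The ER stress sensors were measured first among the roles. Eif2ak3, which encodes PERK, stood at 25.1, 24.8 and 20.8 CPM in KO and at 24.0, 21.5 and 23.0 CPM in WT, for replicates 1 to 3 in this and all later sentences. The groups overlapped, and the log2 fold change was 0.04 (95% interval -0.23 to 0.32). Atf6, a sensor that is cut to release a transcription factor, stood at 51.3, 42.4 and 36.8 CPM in KO and at 48.6, 54.5 and 52.0 CPM in WT. KO replicates 2 and 3 lay below every WT library while KO replicate 1 lay among them, and the log2 fold change was -0.25 (95% interval -0.52 to 0.03; edgeR adjusted p = 0.555). Ern1, which encodes the kinase and RNase IRE1, was low, with 3.95, 3.09 and 2.22 CPM in KO and 3.37, 3.65 and 3.07 CPM in WT. Its interval was wide (-0.71 to 0.47 around -0.12).

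Among the transcription factors, Atf4 had the highest level per exon length in KO and in WT. It stood at 131.3, 112.7 and 118.5 CPM in KO and at 112.7, 124.2 and 108.0 CPM in WT, so the groups overlapped (log2 fold change 0.07, 95% interval -0.14 to 0.28). ATF4 is controlled mainly by translation, so its mRNA level is not a measure of the protein. Xbp1, whose mRNA is spliced by IRE1 into its active form, stood at 68.4, 67.9 and 80.2 CPM in KO and at 72.6, 78.7 and 74.6 CPM in WT. The counts do not separate the spliced from the unspliced form, and the interval was -0.27 to 0.15. Ddit3, which encodes the pro-death factor CHOP, stood at 12.3, 14.9 and 13.8 CPM in KO and at 13.7, 13.4 and 11.9 CPM in WT. The groups overlapped for this widely used marker of ER stress, and its interval was -0.24 to 0.38. Atf5, a relative of ATF4, stood at 15.2, 20.7 and 22.4 CPM in KO and at 16.7, 17.5 and 18.1 CPM in WT. KO replicate 1 was the lowest and KO replicates 2 and 3 were the highest of the 6 (log2 fold change 0.16, SE 0.155). Cebpb, which encodes a C/EBP factor that pairs with ATF4, stood between 1.40 and 2.21 CPM in KO and between 1.06 and 1.81 CPM in WT, on 17 to 35 reads a library.

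Nupr1, a small stress-induced chromatin protein gene, had the largest fitted difference of the 30. It stood at 7.24, 7.88 and 6.48 CPM in KO and at 3.50, 3.72 and 4.81 CPM in WT. Every KO library lay above every WT library, on 102 to 125 reads in KO and 55 to 80 in WT. The mean was 7.20 ± 0.699 CPM in KO and 4.01 ± 0.705 CPM in WT (SD, n = 3 each), a 1.79-fold higher fitted level in KO (log2 fold change 0.84, SE 0.204, 95% interval 0.39 to 1.29). The edgeR adjusted p over all genes was 0.110, which is not called. With the replicate block it was called (log2 fold change 0.85, edgeR adjusted p = 0.0285), and with exonic length offsets added to the block it was not (log2 fold change 0.78, edgeR adjusted p = 0.0689). Within the libraries with cerebellar transcripts the log2 fold change was 0.96 (edgeR adjusted p = 0.757, with a single WT library), and within those without them it was 0.88 (edgeR adjusted p = 0.0322, with a single KO library). Both fits take the lone library to have the spread of the other group, so neither p is a replicated test of KO against WT. The summed meningeal fibroblast markers also lay higher in every KO library than in every WT library, and their part in this result was not tested.

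**Figure D2:**
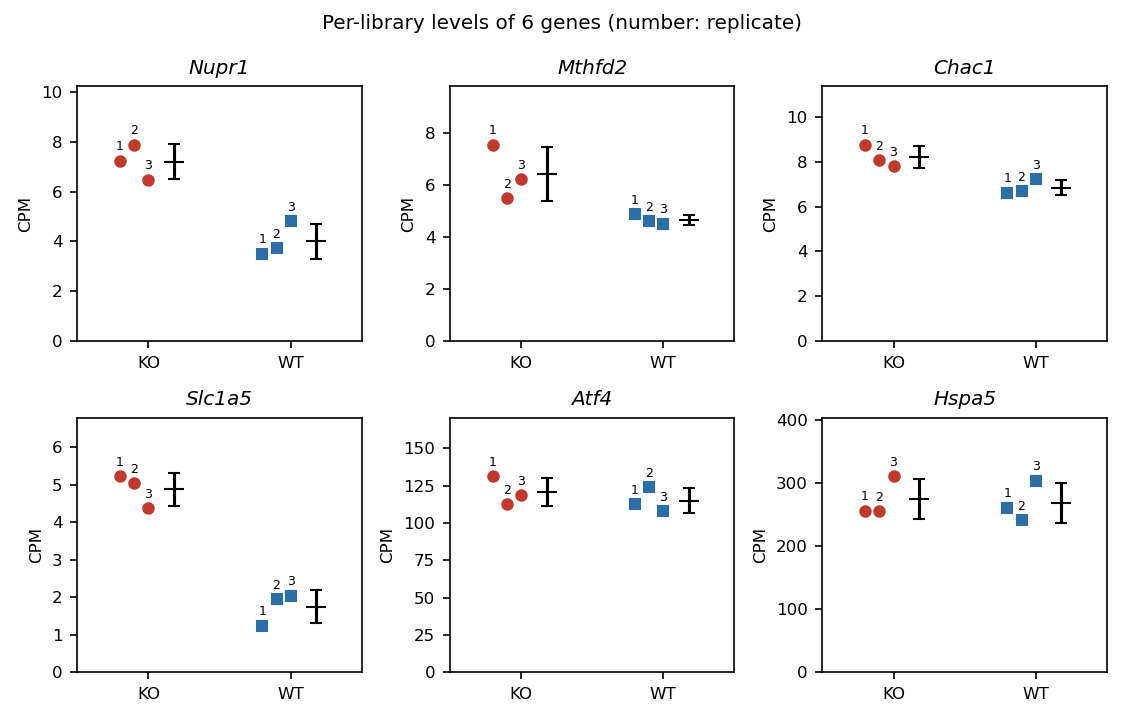
CPM of 6 genes in each library, with KO on the left and WT on the right of each panel. Points carry their replicate number, and the black bar is the mean with its SD (n = 3). KO and WT points do not overlap for Nupr1, Mthfd2, Chac1 and Slc1a5, and they overlap for Atf4 and Hspa5. Slc1a5 was called without the replicate block, where 1.20% of all genes were. Nupr1 and Slc1a5 were called with it, where 3.41% were. Psat1, Sel1l and Edem1, not drawn, also had no overlap and were lower in KO. Of the 30 tested genes of the list, 7 had no overlap, 4 higher and 3 lower, against 16.0% of all genes.

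Feedback and effector genes downstream of ATF4 and CHOP were not called. Chac1, a glutathione-degrading enzyme gene, stood at 8.76, 8.06 and 7.81 CPM in KO and at 6.62, 6.69 and 7.22 CPM in WT. Every KO library lay above every WT library, by a log2 fold change of 0.26 (95% interval -0.10 to 0.62; edgeR adjusted p = 0.636). Ppp1r15a, which encodes GADD34 and reverses eIF2 phosphorylation, stood at 18.4, 18.5 and 23.3 CPM in KO and at 19.9, 25.3 and 17.4 CPM in WT. The groups overlapped, with an interval of -0.42 to 0.30. Ddit4, an inhibitor of mTORC1 signalling, stood at 34.7, 31.9 and 32.5 CPM in KO and at 38.1, 30.2 and 33.8 CPM in WT, again with overlap (-0.30 to 0.21).

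Genes near the limit of detection missed the filter. Trib3, a pseudokinase gene induced by ATF4 and CHOP, had 2, 4 and 0 reads in KO and 8, 4 and 6 reads in WT. The count of 0 in KO replicate 3 allows a level of up to 0.190 CPM (3 counts), which is above the value in KO replicate 1, so no order between KO libraries can be read. Without a filter edgeR gave Trib3 a log2 fold change of -1.54 with an unadjusted p of 0.154 and an adjusted p of 0.750. Atf3, an early stress factor gene, had 10, 8 and 6 reads in KO and 8, 6 and 10 reads in WT, or 24 in all in each group. In CPM Trib3 lay lower in every KO library than in every WT library, at most 0.252 CPM in KO and at least 0.270 CPM in WT. Those 2 values, from replicate 2 of KO and of WT, both rest on 4 reads. They differ only through library scaling, so the reads do not separate the groups. Without a filter edgeR gave Atf3 an unadjusted p of 0.979.

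Enzymes of serine, asparagine and folate metabolism, which ATF4 raises when amino acids run short, did not move together. Mthfd2, a mitochondrial folate enzyme gene, stood at 7.54, 5.48 and 6.23 CPM in KO and at 4.87, 4.60 and 4.51 CPM in WT. Every KO library lay above every WT library (log2 fold change 0.46, SE 0.197, 95% interval 0.03 to 0.90), and the edgeR adjusted p was 0.479. Psat1, the aminotransferase gene of serine synthesis, went the other way, at 71.8, 84.7 and 84.5 CPM in KO and at 86.0, 97.9 and 92.3 CPM in WT. Every KO library lay below every WT library, by a log2 fold change of -0.20 (95% interval -0.41 to 0.02; edgeR adjusted p = 0.553). Phgdh, which starts serine synthesis and in brain is known from astrocytes, stood at 27.2, 28.9 and 29.8 CPM in KO and at 28.0, 29.4 and 25.9 CPM in WT. Shmt2, a mitochondrial enzyme gene of serine breakdown, stood at 28.7, 25.5 and 36.7 CPM in KO and at 31.3, 30.3 and 29.7 CPM in WT. Its WT libraries lay close together, while KO replicate 2 was the lowest and KO replicate 3 the highest of all 6. Asns, asparagine synthetase, stood at 81.7, 74.0 and 98.5 CPM in KO and at 81.8, 92.7 and 88.9 CPM in WT, with the KO libraries again outside the WT range on both sides. Phgdh, Shmt2 and Asns had log2 fold changes of 0.05, -0.01 and -0.05.

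Amino acid transporters overlapped between the groups. Slc7a11, the cystine importer, stood at 72.1, 62.4 and 76.9 CPM in KO and at 68.4, 75.3 and 74.0 CPM in WT (95% interval -0.26 to 0.18 on the log2 scale). Slc7a5, an importer of large neutral amino acids, stood at 82.3, 73.2 and 73.8 CPM in KO and at 64.0, 76.6 and 79.5 CPM in WT. Slc3a2, the heavy chain that both transporters need at the membrane, stood at 155.7, 157.8 and 178.1 CPM in KO and at 147.0, 163.1 and 165.1 CPM in WT. The log2 fold changes of Slc7a5 and Slc3a2 were 0.06 and 0.05.

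ER chaperones held the highest levels of the list and overlapped between KO and WT. Hspa5, which encodes BiP, the chaperone that holds the sensors inactive, stood at 257.0, 256.1 and 311.4 CPM in KO and at 261.6, 241.9 and 304.1 CPM in WT. Replicate 3 was the highest in KO and in WT, and the groups overlapped (log2 fold change 0.03, 95% interval -0.23 to 0.29). Hsp90b1, which encodes GRP94, stood at 399.2, 369.9 and 476.5 CPM in KO and at 416.6, 408.1 and 471.1 CPM in WT, with the same libraries highest. Calr, a lectin chaperone gene, stood at 615.6, 652.5 and 697.1 CPM in KO and at 605.1, 677.9 and 644.3 CPM in WT. Canx, its membrane-bound relative, stood at 362.3, 351.6 and 353.3 CPM in KO and at 383.0, 359.1 and 385.4 CPM in WT. Only the lowest WT library overlapped the KO libraries for Canx, and its interval was -0.27 to 0.11.

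The remaining folding genes also overlapped between KO and WT. Pdia4, a disulfide isomerase gene, ran from 47.7 to 52.0 CPM in KO and from 42.2 to 52.9 CPM in WT. Dnajb9, a BiP co-chaperone gene that XBP1 raises, ran from 47.4 to 49.5 CPM in KO and from 41.8 to 47.8 CPM in WT, with KO replicate 1 inside the WT range. Creld2, an ER-resident gene induced by ER stress, ran from 11.8 to 15.8 CPM in KO and from 11.0 to 15.5 CPM in WT. Their log2 fold changes were 0.11, 0.10 and 0.06, with 0 of the 7 folding genes called.

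The 3 genes of ER-associated degradation had groups that did not overlap, in mixed directions. Herpud1, a ligase adaptor and a sensitive ER stress gene, stood at 44.2, 43.2 and 49.8 CPM in KO and at 40.0, 40.0 and 41.8 CPM in WT, so every KO library was higher. Sel1l, the scaffold of the retrotranslocation ligase, stood at 130.1, 137.2 and 115.8 CPM in KO and at 137.6, 148.6 and 142.6 CPM in WT, so every KO library was lower. Edem1, a mannosidase-like gene that sorts glycoproteins for degradation, stood at 17.4, 16.9 and 15.2 CPM in KO and at 17.6, 20.1 and 17.7 CPM in WT, also lower. The log2 fold changes were 0.17, -0.16 and -0.16, and the 95% intervals included 0 in each. In the edgeR test the adjusted p was 0.611, 0.603 and 0.729. Over the whole list the groups did not overlap in 7 of the 30 genes (23.3%), 4 higher and 3 lower in KO, against 16.0% of all genes tested (8.02% higher and 7.99% lower).

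**Figure D3:**
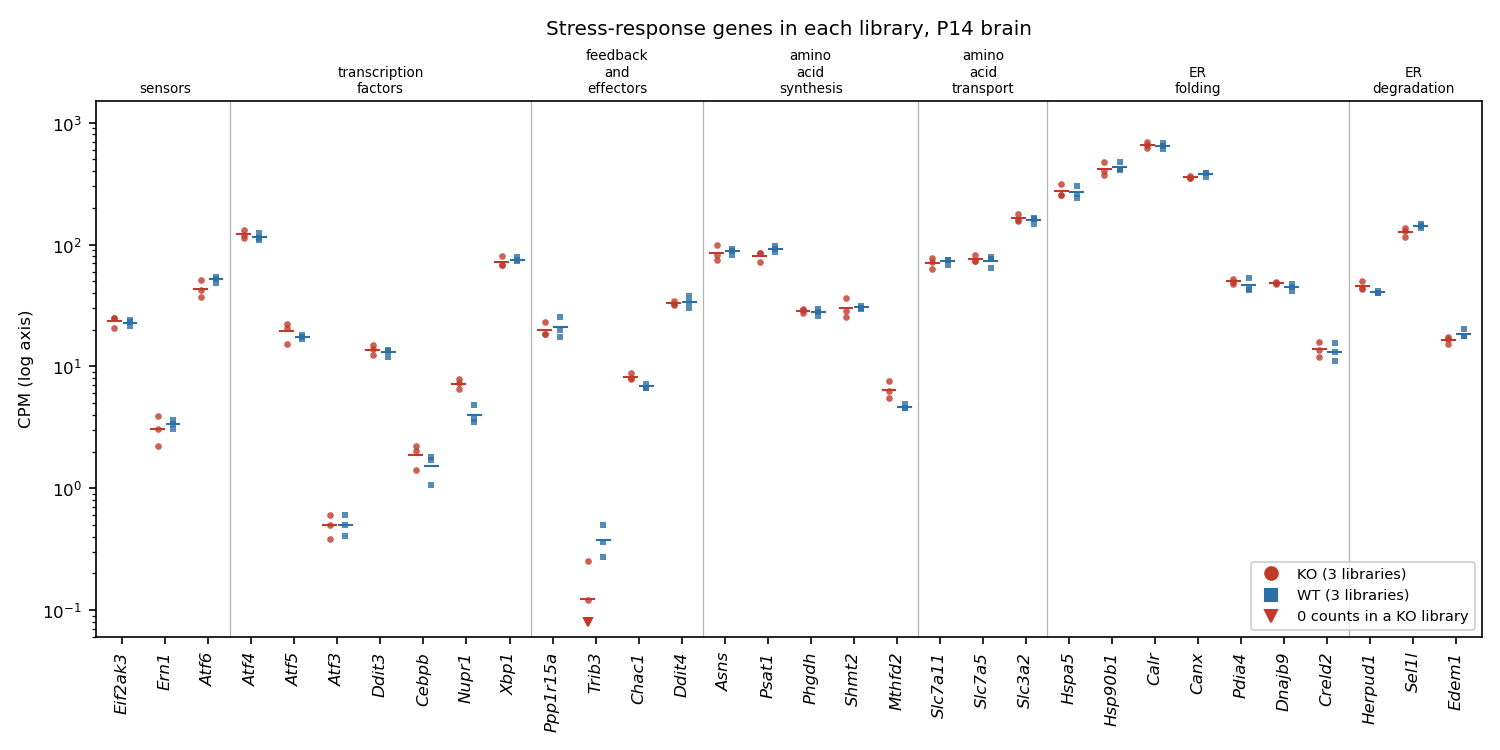
CPM (log axis) of all 32 genes in each library, grouped by role. Circles are KO libraries, squares WT libraries and short lines group means (n = 3), and the triangle marks the KO library with 0 reads of Trib3. Levels span from below 1 CPM for Trib3 and Atf3 to between 605.1 and 697.1 CPM for Calr, and KO and WT lie side by side for most genes.

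Set per kilobase of exon (RPKM), the order of the levels was led by ER chaperones in KO and WT alike. Calr stood at 227.4 ± 14.2 RPKM in KO and 223.1 ± 12.7 RPKM in WT (SD, n = 3 each), above Hsp90b1 at 103.0 ± 13.7 RPKM in KO and 107.1 ± 8.48 RPKM in WT. Canx (75.8 ± 1.22 RPKM in KO and 80.1 ± 3.10 RPKM in WT) and Hspa5 (65.0 ± 7.48 RPKM in KO and 63.7 ± 7.52 RPKM in WT) came next. Atf4 was the fifth in that order, at 51.3 ± 4.04 RPKM in KO and 48.8 ± 3.54 RPKM in WT, far above Ddit3 at 7.99 ± 0.742 RPKM in KO and 7.60 ± 0.566 RPKM in WT. The sensors lay below these genes, with Atf6 the highest of them at 4.72 RPKM in KO and 5.60 RPKM in WT. Eif2ak3 had 3.90 RPKM in KO and 3.79 RPKM in WT, and Ern1 had 0.378 RPKM in KO and 0.412 RPKM in WT. The lowest were Atf3, at 0.231 RPKM in KO and 0.233 RPKM in WT, and Trib3.

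Libraries within a group differed too. KO replicate 3 held the highest KO value for 15 of the 30 genes and for 6 of the 7 folding genes, and WT replicate 3 the highest WT value for 5 of those 7. The share of all reads that fell on the 32 genes was 0.285%, 0.276% and 0.322% in KO and 0.285%, 0.287% and 0.299% in WT. KO replicate 3 was the highest and KO replicate 2 the lowest of the 6. Among the libraries with cerebellar transcripts 21 of the 30 log2 fold changes were positive (median 0.10), and among those without them 11 were positive (median -0.07). Each of these splits leaves a single KO or WT library. With all 6 libraries the list's median, 0.04, also changed sign, to -0.025 with exonic length offsets, with or without the replicate block, and to -0.0080 with a cerebellar term and the block. Creld2 had a log2 fold change of 0.42 in the libraries with cerebellar transcripts and of -0.28 in those without.

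Other genes of the pathways, from lists of 85 symbols of which 83 were tested, gave 1 call, against 1.20% of all genes. This was Slc1a5, a glutamine and neutral amino acid transporter gene on the list of other ATF4 programme genes. It stood at 5.23, 5.04 and 4.38 CPM in KO and at 1.25, 1.96 and 2.05 CPM in WT. Every KO library lay above every WT library, and Slc1a5 rose 2.78-fold in the fit (log2 fold change 1.48, SE 0.263, edgeR adjusted p = 0.0215). The call was lost without KO replicate 2 or 3 or any WT replicate (edgeR adjusted p of 0.0611 to 0.0845) and kept without KO replicate 1 (0.0465). With a term for Xist the edgeR adjusted p was 0.0731. Meningeal fibroblast markers were likewise higher in every KO library, and their part in its rise was not tested.

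The other pathway lists held no call in this fit, and 9 of the 83 genes (10.8%) had an unadjusted p under 0.05, 3 higher and 6 lower, against 9.67% of all genes. Of 12 genes of the eIF2 machinery 0 were called, with a median log2 fold change of 0.02. Eif2s3x, an eIF2 subunit gene on the X chromosome that escapes X inactivation, stood at 84.2, 87.1 and 60.0 CPM in KO and at 51.1, 76.1 and 51.2 CPM in WT. Its high libraries were those with Xist, and it had an edgeR adjusted p of 0.531, of 0.0412 under the replicate block and of 0.463 with a term for Xist. The catalytic eIF2B subunit gene Eif2b5 had a log2 fold change of 0.21 (SE 0.121). Of 12 tRNA synthetase genes 0 were called, with a median of 0.01, and Iars (-0.25, SE 0.0848) and Lars (0.12, SE 0.124) had the smallest p. The 21 tested genes of the other ATF4 programme had a median of -0.07, and their Gdf15 and Fgf21, secreted stress signals, had no read in 5 of the 6 libraries.

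The lists of ER genes outside the 32 also held no call in the fit without the replicate block. Of 17 other folding genes 0 were called (median 0.02), and Fkbp2 (0.24, SE 0.104) and Hspa13 (0.21, SE 0.0947) had the smallest p. At an unadjusted edgeR p under 0.05 there were 3 of the 17 (17.6%), against 9.67% of all genes. The third, Dnajc3 (-0.27, SE 0.119), was lower in KO. Of 15 other degradation and translocation genes 0 were called (median 0.03), with Edem3 (-0.33, SE 0.163) and Sec61b (0.25, SE 0.141) leading. Among 6 other ER-anchored factors and their proteases, Creb3l2, a relative of ATF6, stood at 9.36, 10.6 and 5.53 CPM in KO and at 15.4, 14.1 and 13.7 CPM in WT. Every KO library was lower (log2 fold change -0.76, SE 0.215), and the edgeR adjusted p was 0.204, or 0.0104 when the replicate block was added. Oligodendrocyte markers were lower in the same libraries, and their part in the Creb3l2 value was not tested. Mbtps2, the gene of a protease that cuts ATF6, had a log2 fold change of -0.39 (SE 0.145), and every KO library was again lower. Creb3l2 and Mbtps2 were the 2 of these 6 genes (33.3%) with an unadjusted edgeR p under 0.05. DESeq2 and limma-voom also called Slc1a5 alone among the lists of other pathway genes, against 1.42% and 1.06% of all genes. The replicate block added Eif2s3x and Creb3l2, and under it 3.41% of all genes were called.

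Neighbouring stress responses were not called either. Of 22 genes of heat shock, mitochondrial and NRF2 responses, 0 passed the edgeR test at an adjusted p under 0.05, and 0 had an unadjusted p under 0.05. Over all genes tested the shares were 1.20% and 9.67%. DESeq2 and limma-voom called 0 of the 22 as well. In the heat-shock list Hspa1a (0.47, SE 0.299) and Hsph1 (-0.14, SE 0.111) had the smallest p, and reads of Hspa1a may be shared with its near-identical copy Hspa1b. All 7 mitochondrial chaperone and protease genes had positive values, from 0.05 to 0.18, led by Clpp (0.18, SE 0.0990) and Hspd1 (0.16, SE 0.115). Over all genes tested 52.3% were positive. The 7 genes share the same libraries and are not independent. Their sum was 624.8, 564.6 and 689.1 CPM in KO and 601.1, 537.3 and 607.6 CPM in WT, so the groups overlapped. Among NRF2 genes Hmox1 (0.39, SE 0.204), heme oxygenase, and Nqo1 (0.37, SE 0.277) had the smallest p.

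**Figure D4:**
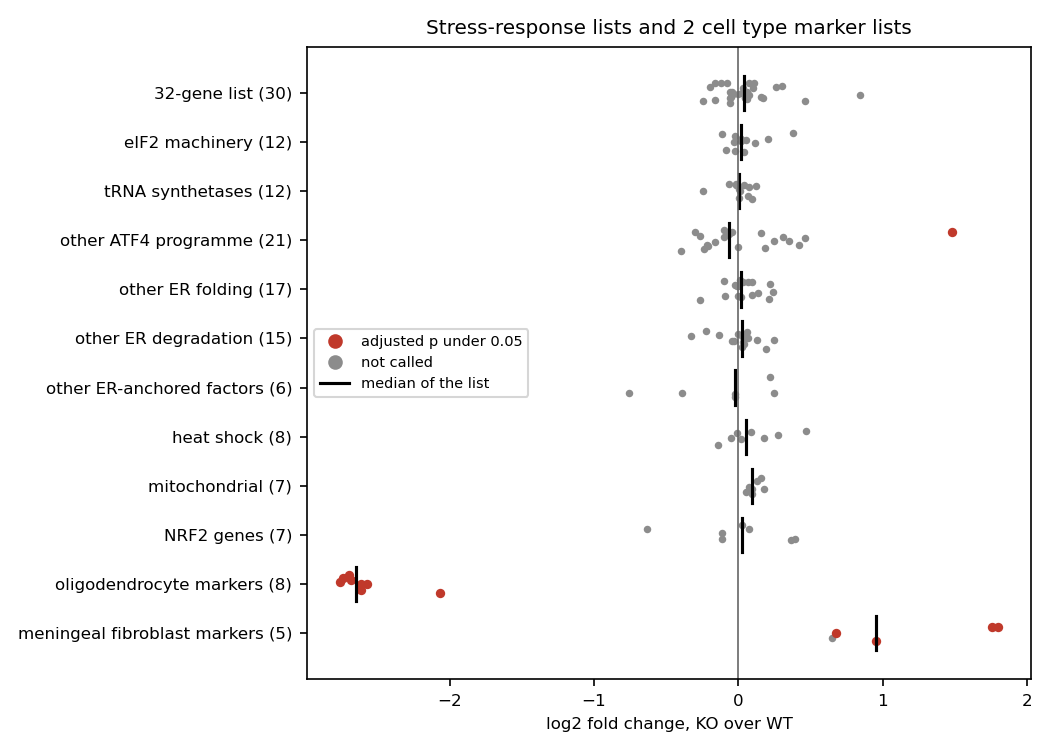
Log2 fold change of KO over WT (horizontal axis) for each tested gene of the 32-gene list, of 9 other stress lists and of 2 cell type marker lists, with the number tested in brackets. Red points have an edgeR adjusted p under 0.05, grey points do not, and black lines are list medians. The stress lists sit near 0 with Slc1a5 (1.48) as their 1 called gene in the fit without the replicate block, while oligodendrocyte markers lie near a median of -2.65 and meningeal fibroblast markers near 0.95.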

How the data were processed

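The authors deposited whole-number counts of reads on the exons of each UCSC known gene, going by the file names. FastQC 0.11.2, Trimmomatic 0.32, STAR 2.3.0e, featureCounts 1.5.0, DESeq2 and the mm10 build are listed in the submitters' processing notes. Whether strand was used in counting, and how multi-mapping reads were handled, is not given in the sources used here. Counts at Eif2ak3, Atf5, Ddit3, Cebpb, Ppp1r15a, Shmt2, Hsp90b1 and Dnajb9 may therefore be shared with genes that overlap their exons on the opposite strand. These overlaps ran from 12 bases (Ppp1r15a) to 485 bases (Eif2ak3). The deposited normalized table was not used here.

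Counts were tested in R 4.3.3 with edgeR 4.0.16 (filterByExpr, TMM factors, glmQLFit and glmQLFTest, 4 residual degrees of freedom, no covariate), with Benjamini-Hochberg adjustment over all genes tested and a threshold of 0.05. The script was tested on simulated data. The fit moderates the spread of each gene toward that of all genes, so its total degrees of freedom exceed the 4 residual ones. SE is the log2 fold change divided by the square root of F, and 95% intervals use the t distribution on the total degrees of freedom. Intervals that just clear 0, such as that of Mthfd2, rest in part on this moderation. CPM is on TMM-scaled totals. RPKM uses exon unions of GENCODE M21 on mm10, where Ddit3 is annotated as a pair of overlapping genes and the wider was taken. DESeq2 1.42.0 and limma 3.58.1 (voom) were alternatives. Intervals and floors cover counting error and the spread between libraries only.

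The 32 genes, the other lists and the tests were chosen with earlier results of these data known. Named were all 32, Prmt5, each called gene of the other lists, and the genes of smallest p where a list had no call. Gdf15 and Fgf21 were named after their values were seen. Same-numbered KO and WT samples deviated together (correlations of 0.351, 0.334 and 0.177 across genes). Between differently numbered samples the correlations ran from -0.381 to 0.100. A block on that number was therefore read as a pairing, which no label states. The reading comes from the same data that the block is used to test. Both replicates 1 held cerebellar transcripts and both replicates 2 held Xist, and the part of these in the correlations was not tested.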

Additional observations from a re-analysis of the deposited data

How the results depend on the processing

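Over 21 alternatives, 6 of which left out a library, 13 of the 30 tested genes kept their direction and the other 17 changed sign at least once, none of them called on either side. The number of genes called over all genes was 199, and was 315 with DESeq2, 566 with the replicate block, 535 with a term for cerebellar transcripts and the replicate block, 449 with exonic length offsets and the replicate block, 129 with a term for Xist, and 1254 in the libraries without cerebellar transcripts. It ran from 100 to 305 when a library was left out. Of the 30 genes, 1 was called, Nupr1, with the replicate block, with the cerebellar term and the replicate block, and in the libraries without cerebellar transcripts, which hold a single KO library, and 0 in every other alternative, leaving out a library included. The replicate block changed no other call among the 30. With total counts alone the log2 fold change turned in Shmt2 (0.033). With the cerebellar term and the replicate block the log2 fold change turned in Ddit3 (-0.00089), Phgdh (-0.033), Calr (-0.015) and Creld2 (-0.044). In the libraries with cerebellar transcripts the log2 fold change turned in Eif2ak3 (-0.072), Ddit3 (-0.075), Xbp1 (0.028), Ppp1r15a (0.057), Asns (0.14), Shmt2 (0.058), Slc7a11 (0.12) and Hsp90b1 (0.067). In the libraries without them the log2 fold change turned in Atf4 (-0.043), Slc7a5 (-0.095), Slc3a2 (-0.058), Hspa5 (-0.094), Calr (-0.020) and Creld2 (-0.28). With the Xist term the log2 fold change turned in Shmt2 (0.056) and Hsp90b1 (0.0085). With exonic length offsets the log2 fold change turned in Atf4 (-0.00014), Ddit3 (-0.026), Phgdh (-0.025), Slc7a11 (0.070), Calr (-0.029) and Creld2 (-0.059). With those offsets and the replicate block the log2 fold change turned in Atf4 (-0.0025), Ddit3 (-0.026), Phgdh (-0.024), Slc7a11 (0.056), Calr (-0.028) and Creld2 (-0.055). Leaving out a library turned the sign in Asns (-0.17 to 0.038), Calr (-0.019 to 0.071), Creld2 (-0.061 to 0.18), Ddit4 (-0.13 to 0.044), Eif2ak3 (-0.0039 to 0.13), Ern1 (-0.34 to 0.067), Hsp90b1 (-0.17 to 0.019), Hspa5 (-0.070 to 0.12), Phgdh (-0.0074 to 0.085), Ppp1r15a (-0.18 to 0.096), Shmt2 (-0.17 to 0.10), Slc3a2 (-0.016 to 0.084), Slc7a11 (-0.11 to 0.038) and Slc7a5 (-0.031 to 0.12), where the brackets give the lowest and highest value. The cause of these changes was not tested. Atf3 and Trib3 had at most 10 reads a library, and among the tested genes Cebpb and Ern1 had the widest intervals.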
